A study of Mus musculus with 14 samples.

Results

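The genes described here are the IGF1 axis and its binding proteins: *Igf1*, its receptor gene *Igf1r*, and the binding protein genes *Igfbp2*, *Igfbp3*, *Igfbp4*, *Igfbp5*, *Igfbp6* and *Igfbp7*. They were taken by gene symbol from a table of read counts, which held all 8 members among its 24062 genes. The table covers bulk RNA sequencing of 14 mouse libraries, each carrying its own mouse label. The 3 controls were dorsal root ganglia (DRGs) with attached nerves from Nf1fl/fl mice, which carry the floxed *Nf1* allele without Cre. The other 11 libraries were plexiform neurofibromas (PNs), benign nerve tumors, from DhhCre;Nf1fl/fl mice, in which Cre under the *Dhh* promoter deletes *Nf1* in the Schwann cell (SC) lineage while the tumor's other cells keep the gene. By MRI volume change over 2 months, 5 of these PNs were slow growing (under 5 mm3) and 6 were fast growing (an increase over 35 mm3). All mice had a mixed C57BL/6, I-129 and FVBN background, received no drug, and were collected at 9 months of age by the methods, while a figure legend gives a younger age. RNA came from whole tissue, so that fewer cells of a type and less RNA per cell cannot be told apart in any value below.

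IGF1 is a secreted growth factor that binds a receptor tyrosine kinase, IGF1R, which signals through adaptor proteins to the PI3K-AKT and RAS-MAPK pathways. RAS is also the target of neurofibromin, the GTPase-activating protein encoded by *Nf1*. The IGF-binding proteins hold IGFs outside the cell, prolong their life or keep them from the receptor, and release them when they are cleaved by proteases such as PAPP-A. IGFBP7 is a relative of this family that binds IGFs only weakly and is found in vessel walls and matrix. In nerve, IGF1 is known as a survival and myelination factor for SCs.

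The library totals lay between 9596773 and 17594164 counts on genes. Levels are given as CPM, the counts on a gene relative to the library total after TMM scaling over all 14 libraries. Fold changes come from edgeR's quasi-likelihood test on the counts, and a gene was called at a Benjamini-Hochberg adjusted p under 0.05 over all genes tested. *Nf1* itself measured 131 to 229 CPM in controls, 224 to 293 in slow-growing PNs and 224 to 276 in fast-growing PNs. It was called higher in all PNs than in controls, by 0.54 on the log2 scale (edgeR adjusted p = 0.0215). The difference did not pass in slow-growing (edgeR adjusted p = 0.127) or fast-growing PNs (edgeR adjusted p = 0.0718). Counts over the whole gene in whole tissue do not resolve the floxed exons, so this level does not check the labels. SC markers were present in every library, with a summed level of 8 genes from 2464 to 12092 CPM, and 4 of 8 were called higher in all and in fast-growing PNs against controls and 3 of 8 in slow-growing PNs. The controls also carried skeletal muscle markers, 10 genes with a sum of 3487 to 14297 CPM against 21.6 to 3249 in slow-growing and 82.2 to 2204 in fast-growing PNs. Fat markers, again 10 genes, summed to 4041 to 5715 CPM in controls, 24.5 to 3034 in slow-growing PNs and 32.0 to 337 in fast-growing PNs. Library 1203 of the slow-growing group had the highest neuron marker sum, 8863 CPM, and the lowest fibroblast marker sum, 1249 CPM. Library 1191 of the fast-growing group had the lowest neuron marker sum, 28.2 CPM.

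In the mouse genome (mm10, GENCODE M21) all members are protein coding and lie on 6 chromosomes. *Igf1* is at chr10:87858265-87937042 on the plus strand and *Igf1r* at chr7:67952827-68233668 on the plus strand. *Igfbp2* (chr1:72824503-72852474, plus strand) and *Igfbp5* (chr1:72857932-72874884, minus strand) face each other with 5457 bases and no protein-coding gene between them. *Igfbp3* (chr11:7206086-7213923, minus strand) faces *Igfbp1* across 3539 bases. *Igfbp4* is elsewhere on that chromosome, at chr11:99041244-99054392 on the plus strand, and *Igfbp6* is at chr15:102144362-102149511 on the plus strand. *Igfbp7* is at chr5:77349240-77408041 on the minus strand, and exons of *Polr2b* overlap its exons on the opposite strand. The strand setting of the counting is not given in the sources used here, so that reads in this overlap could belong to either gene.

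The sequences upstream of *Igfbp3*, *Igfbp4* and *Igfbp7* are shown because these were the members whose levels ran most closely together among the fast-growing PNs. Each is the 250 bases before the annotated RefSeq start (GRCm38.p6), read 5′ to 3′ on the gene's strand, at chr11:7213924-7214173 (minus strand), chr11:99040994-99041243 (plus strand) and chr5:77408046-77408295 (minus strand), and no annotated exon lies in these windows. Capitals mark matches on either strand to GGGCGG (the GC box), TATAAA (the TATA box) or TGANTCA (the AP-1 site), motifs that do not overlap here.
*Igfbp3*: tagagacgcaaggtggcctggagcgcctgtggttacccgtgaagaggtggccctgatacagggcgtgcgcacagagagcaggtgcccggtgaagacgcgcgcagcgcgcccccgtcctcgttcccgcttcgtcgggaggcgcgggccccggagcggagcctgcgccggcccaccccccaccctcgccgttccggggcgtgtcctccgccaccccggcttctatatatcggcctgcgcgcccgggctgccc
*Igfbp4*: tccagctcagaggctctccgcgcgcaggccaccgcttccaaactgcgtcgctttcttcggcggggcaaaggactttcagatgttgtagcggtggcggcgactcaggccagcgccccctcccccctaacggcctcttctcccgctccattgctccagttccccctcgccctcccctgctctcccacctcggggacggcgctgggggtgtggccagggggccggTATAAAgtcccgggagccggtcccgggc
*Igfbp7*: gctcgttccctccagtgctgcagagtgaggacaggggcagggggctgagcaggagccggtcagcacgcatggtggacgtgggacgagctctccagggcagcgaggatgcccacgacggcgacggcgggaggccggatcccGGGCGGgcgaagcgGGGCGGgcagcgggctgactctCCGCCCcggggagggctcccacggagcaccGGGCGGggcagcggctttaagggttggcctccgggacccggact
The *Igfbp7* window held 4 GC boxes, the *Igfbp4* window 1 TATA box, and the *Igfbp3* window none of the 3 motifs. Among 32851 upstream windows of the same length in the same table, 32.7% held a GC box, 12.4% a TATA box and 6.75% an AP-1 site. These are matches of letters in a window and were not tested for binding.

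Within a library, levels of different members were compared per length, as CPM per kb of the longest annotated transcript. In controls, *Igfbp7* was the most abundant per length at 208 ± 20.7 CPM per kb (SD, n = 3), above *Igfbp6* at 66.9 ± 36.1 and *Igfbp5* at 65.9 ± 32.7, whose ranges overlapped each other. *Igfbp4* (26.2 ± 4.12) and *Igf1* (17.9 ± 2.72) followed, and *Igfbp3* (9.26 ± 4.76) and *Igf1r* (7.88 ± 1.75) overlapped. *Igfbp2* was the lowest at 1.03 ± 0.385 CPM per kb. In slow-growing PNs, *Igfbp7* at 87.0 ± 42.9 CPM per kb (SD, n = 5) no longer stood apart from *Igfbp5* at 85.5 ± 32.2, and *Igfbp7* was above *Igfbp5* in 2 of 5 libraries. In fast-growing PNs, *Igfbp7* at 249 ± 97.1 CPM per kb (SD, n = 6) exceeded *Igfbp5* at 83.4 ± 28.7 in 6 of 6 libraries, and the ranges did not overlap. *Igf1r* was above *Igf1* per length in the slow-growing group on average (12.5 ± 2.03 against 8.49 ± 5.60) and below it in the fast-growing group (9.50 ± 1.40 against 21.01 ± 15.1). Single libraries differed from these averages. *Igf1* was the higher in slow-growing PNs 1202 (13.6 against 12.5) and 1206 (14.9 against 11.2). It was above *Igf1r* in 4 of 6 fast-growing PNs, and the ranges overlapped.

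**Figure D1:**
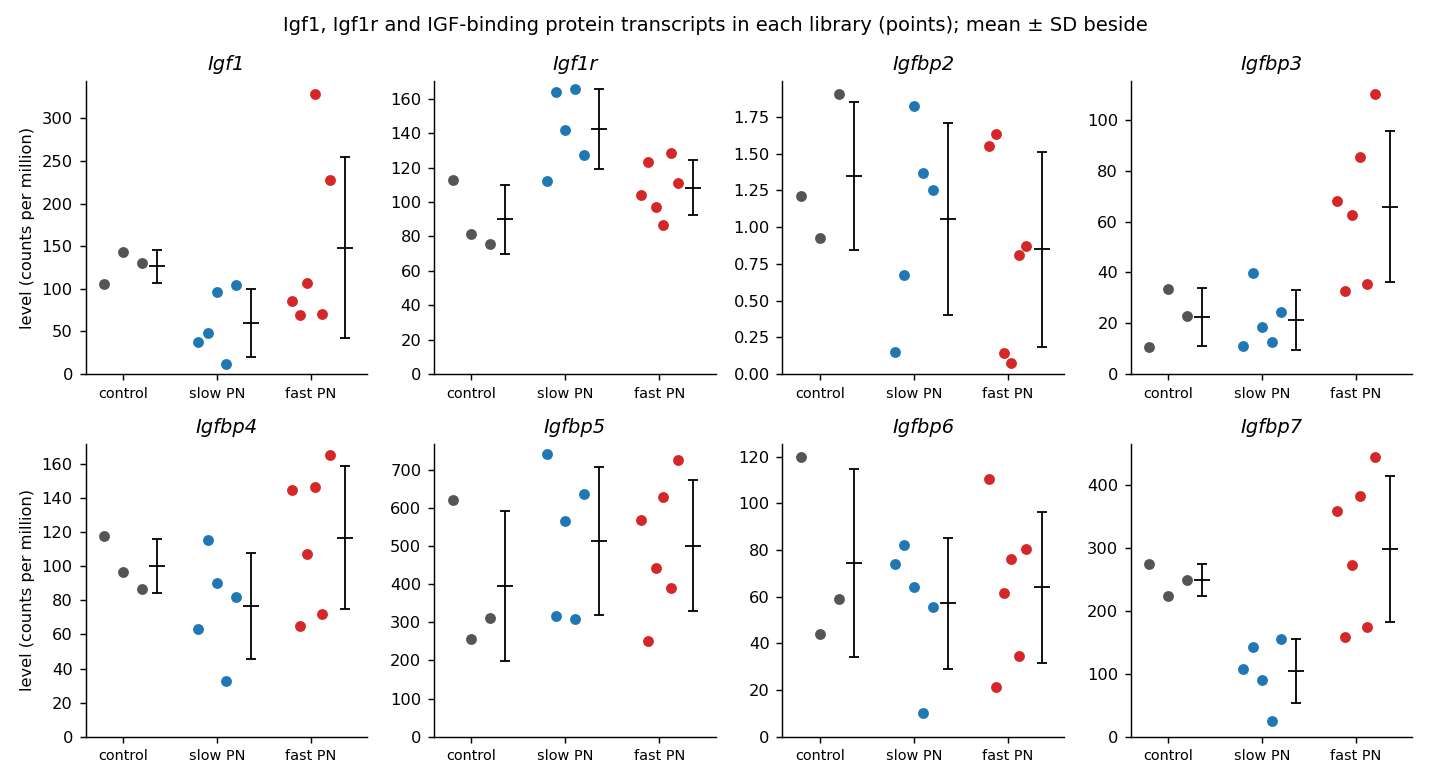
Level of each member in CPM (vertical axis, from 0) in every control (gray), slow-growing PN (blue) and fast-growing PN (red) library, with the group mean ± SD in black. The 5 slow-growing PNs had the lowest *Igfbp7* levels of all libraries, and 4 of 6 fast-growing PNs lay above every control and slow-growing PN for *Igfbp3*.

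The ligand gene *Igf1* measured 106, 143 and 131 CPM in the 3 controls. In the 5 slow-growing PNs it measured 37.9, 48.0, 96.2, 12.4 and 105 CPM, and in the fast-growing PNs from 69.2 to 328 CPM with a median of 96.6. All slow-growing PNs were below the lowest control, although the closest pair differed by less than 1 CPM, and the fast-growing group spread to both sides of the controls. *Igf1* was fitted 1.12 lower on the log2 scale in slow-growing PNs than in controls (95% interval −2.41 to 0.18, edgeR adjusted p = 0.216). Between fast- and slow-growing PNs the fitted difference was 1.31 (95% interval 0.03 to 2.58), and it did not pass the test (edgeR adjusted p = 0.235). Libraries 1191 and 1216 carried the highest fast-growing values, 328 and 228 CPM, and without 1191 the fitted difference between fast-growing PNs and controls went from 0.18 to −0.22. Markers of liver, the main source of circulating IGF1, summed to 4.86 CPM at most in any library, and *Apoa1*, one of these markers, had at most 3 counts in each. The controls did carry skeletal muscle and fat markers. With muscle and fat marker scores as covariates, a fit that called 0 of 15714 genes, the fitted *Igf1* difference between slow-growing PNs and controls changed sign.

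*Igf1r*, the receptor gene, varied least among the members, with a 2.19-fold range over all libraries. It measured 113, 81.3 and 75.7 CPM in controls and 112, 164, 142, 166 and 127 CPM in slow-growing PNs. In fast-growing PNs it ranged from 86.4 to 129 CPM with a median of 107 CPM, with 4 of 6 libraries inside the control range and the other 2 inside the slow-growing range. The lowest slow-growing PN, 1079, was just under the highest control, DRG3, so controls and slow-growing PNs overlapped at that pair alone. *Igf1r* was fitted 0.62 higher on the log2 scale in slow-growing PNs than in controls (SE 0.20, edgeR adjusted p = 0.0796) and 0.39 lower in fast- than in slow-growing PNs (SE 0.14, edgeR adjusted p = 0.145). Neither passed with this test, while the slow-growing difference passed with DESeq2 (adjusted p = 0.0174), in a single edgeR fit of the 3 groups (adjusted p = 0.0241) and in edgeR without control DRG3 (0.81, adjusted p = 0.0401). After a correction for gene length and GC content in each library, the same difference was 0.39 (edgeR adjusted p = 0.229). *Igf1r* has the longest transcript of the members, 11409 bases.

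*Igfbp3* encodes the main carrier of IGFs in blood and also acts in tissue. It was the single member called when edgeR fitted all and only the libraries of each comparison. This was 1 of 8 members in fast-growing PNs against controls, where 31.4% of all tested genes were called. *Igfbp3* measured 10.6, 33.7 and 22.9 CPM in controls and 11.02, 40.0, 18.6, 12.5 and 24.4 CPM in slow-growing PNs. In fast-growing PNs it measured 68.2, 32.7, 62.6, 85.6, 35.6 and 110 CPM. Thus 4 of 6 fast-growing PNs exceeded every other library, and the remaining 2, 1071 and 1214, fell among the highest controls and slow-growing PNs. *Igfbp3* rose by 1.503 on the log2 scale in fast-growing PNs against controls, a 2.84-fold increase (SE 0.49, 95% interval 0.40 to 2.61, edgeR adjusted p = 0.0428). This call was close to the threshold and was lost in 6 of the 9 fits that left out a single library: without DRG3 (1.16, adjusted p = 0.110), DRG5 (adjusted p = 0.102), 1053 (adjusted p = 0.0706), 1179 (adjusted p = 0.0528), 1191 (adjusted p = 0.0618) or 1216 (adjusted p = 0.0565). It was also lost with muscle and fat marker scores as covariates (fitted −0.17, edgeR adjusted p = 0.996), a fit in which 0 of 16037 genes were called. Against slow-growing PNs the fitted difference was 1.63 (95% interval 0.73 to 2.52), which missed the threshold (edgeR adjusted p = 0.0625), in a fit that called 196 of 15465 genes. It passed without slow-growing PN 1198A (1.99, edgeR adjusted p = 0.0162), where 1194 of 15611 genes were called. It also passed without fast-growing PN 1071 (1.79, edgeR adjusted p = 0.0462), where 372 of 15299 were called, and with DESeq2 (adjusted p = 0.00375), where 1570 of 15465 were. Over the fits that left out 1 library, 2 to 1194 genes were called in this comparison.

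*Igfbp7* levels did not overlap between the 2 PN groups, by a small margin. It measured 274, 224 and 249 CPM in controls, 108, 143, 90.8, 24.8 and 155 CPM in slow-growing PNs, and 359, 158, 273, 383, 175 and 445 CPM in fast-growing PNs. All slow-growing PNs lay below all controls, as did 12.4% of tested genes, and below all fast-growing PNs, as did 2.1%. The closest PNs of the 2 groups were slow-growing 1206 at 155 CPM and fast-growing 1071 at 158 CPM. The fast-growing range included the control range. The fitted difference was 1.51 on the log2 scale between fast- and slow-growing PNs (SE 0.43, 95% interval 0.57 to 2.46, edgeR adjusted p = 0.0829) and −1.29 between slow-growing PNs and controls (SE 0.47, 95% interval −2.37 to −0.21, edgeR adjusted p = 0.114). Neither passed the test. The former passed with DESeq2 (adjusted p = 0.0122), and the latter passed in edgeR without 1203, the library with the lowest level (−1.01, adjusted p = 0.0256). With the length and GC trend removed the slow-growing difference from controls was −0.66 (edgeR adjusted p = 0.369).

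*Igfbp4* encodes the binding protein that PAPP-A cleaves when it is loaded with IGF. Its levels were 118, 96.5 and 86.8 CPM in controls, 63.0, 116, 90.1, 32.6 and 82.0 CPM in slow-growing PNs, and 145, 65.0, 107, 146, 71.8 and 165 CPM in fast-growing PNs. The groups overlapped, with 1203 the lowest and 1216 the highest library. The fitted difference between fast- and slow-growing PNs was 0.60 on the log2 scale (95% interval −0.13 to 1.34, edgeR adjusted p = 0.336).

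*Igfbp5* encodes a binding protein that attaches to extracellular matrix, and in CPM it was the most abundant member in each group on average. It ranged from 256 to 620 CPM in controls, 308 to 741 in slow-growing PNs and 251 to 724 in fast-growing PNs, and the 3 groups covered nearly the same range. The fitted difference between fast- and slow-growing PNs was −0.04 (95% interval −0.72 to 0.64, edgeR adjusted p = 0.951). *Igfbp6*, whose protein binds IGF2 more tightly than IGF1, ranged from 44.1 to 120 CPM in controls, 10.3 to 82.3 in slow-growing PNs and 21.2 to 110 in fast-growing PNs. Its groups overlapped throughout, and the fitted difference between slow-growing PNs and controls was −0.41 (SE 0.58, edgeR adjusted p = 0.647), which turned to 0.11 without control DRG3, the library with the highest level.

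*Igfbp2*, which is abundant in developing tissue, was near the limit of detection. It had 10 to 18 counts in controls, 2 to 18 in slow-growing PNs and 1 to 28 in fast-growing PNs, and libraries 1079 and 1179 (2 counts each) and 1191 (1 count) were under 3 counts. A level of 3 counts corresponded to 0.171 to 0.313 CPM, and no *Igfbp2* difference was called (fitted −0.70 in fast-growing PNs against controls, SE 0.76, edgeR adjusted p = 0.527).

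**Figure D2:**
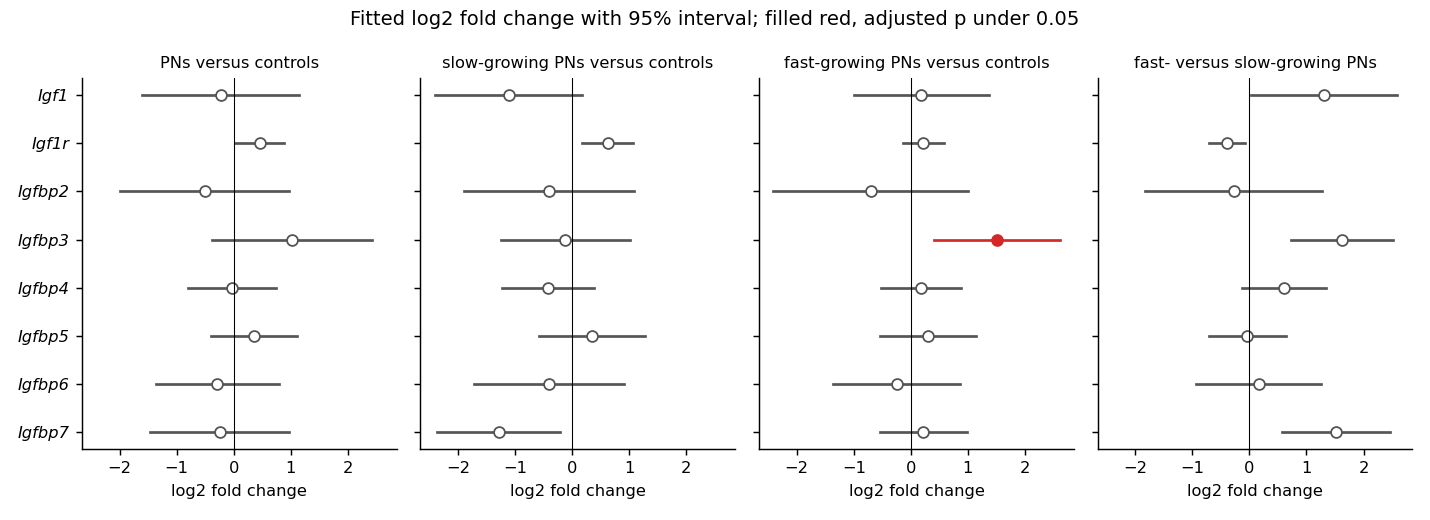
Fitted log2 fold change (horizontal axis) of each member in the 4 comparisons, with the 95% interval as a line. The filled red point, *Igfbp3* in fast-growing PNs against controls (1.503), is the single member called at an adjusted p under 0.05.

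Counted over the members, 0 of 8 were called between all 11 PNs and controls, where 26.3% of 16283 tested genes were called. In that comparison 1 of 8 had an unadjusted p under 0.05 in edgeR, beside 38.9% of all genes, and DESeq2 and limma-voom also called 0, beside 31.8% and 26.4% of all genes. For slow-growing PNs against controls 0 of 8 were called, beside 11.3% of all tested genes, with 2 of 8 at an unadjusted p under 0.05 beside 30.3% of all genes. DESeq2 called 1 (*Igf1r*) beside 22.5% of all genes, and limma-voom 0 beside 11.7%. For fast-growing PNs against controls 1 of 8 was called, beside 31.4% of all tested genes, and DESeq2 and limma-voom also called 1, *Igfbp3*, beside 36.6% and 29.9% of all genes. Between fast- and slow-growing PNs 0 of 8 were called, beside 1.27% of all tested genes, with 4 of 8 at an unadjusted p under 0.05 (*Igf1*, *Igf1r*, *Igfbp3* and *Igfbp7*). DESeq2 called 3 of these (*Igf1r*, *Igfbp3* and *Igfbp7*) beside 10.2% of all genes, and limma-voom 0 beside 0.22%. The share of all genes at an unadjusted p under 0.05 in this last comparison was 20.4%. The 3 comparisons with controls share the same 3 control libraries.

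The median fitted log2 difference of the members was −0.13 for all PNs against controls (0.10 over all tested genes), −0.40 for slow-growing PNs (0.04 over all genes), 0.20 for fast-growing PNs (0.02 over all genes) and 0.38 for fast- against slow-growing PNs (−0.03 over all genes). Some of these medians changed sign with the processing. In the same order they were 0.25, 0.12, 0.30 and 0.42 with the length and GC correction (0.12, 0.09, 0.09 and −0.03 over all genes). With muscle and fat covariates they were −0.67, 0.24, −0.85 and 0.82 (0.06, 0.05, 0.07 and −0.01 over all genes). By levels alone, no member separated all PNs from all controls, while 8.18% of tested genes were higher and 9.48% lower in every PN. In slow-growing PNs, *Igf1* and *Igfbp7* lay below every control, as did 12.4% of tested genes, and no member lay above every control, as did 11%. No member separated fast-growing PNs from controls, beside 17.2% of genes higher and 15.2% lower. *Igfbp7* alone lay higher in every fast- than in every slow-growing PN, as did 2.1% of tested genes, and no member lay lower throughout, as did 0.912%.

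Members also varied together within the PNs. Over the 11 PNs, Pearson's r of log2(CPM + 1) was 0.90 for *Igfbp4* and *Igfbp7* (Spearman's rho 0.76), 0.88 for *Igfbp3* and *Igfbp7* (rho 0.92) and 0.87 for *Igf1* and *Igfbp7* (rho 0.75). *Igf1r* ran the other way, with r = −0.77 against *Igfbp7* (rho −0.80) and −0.72 against *Igf1* (rho −0.68). Across the 28 pairs of members, r ranged from −0.77 to 0.90 with a median of 0.46. Leaving out the 2 PNs farthest from the median of the member named earlier in each pair gave r = 0.73 for *Igfbp4* and *Igfbp7*, 0.93 for *Igfbp3* and *Igfbp7*, 0.66 for *Igf1* and *Igfbp7*, −0.62 for *Igf1r* and *Igfbp7* and −0.35 for *Igf1* and *Igf1r*. Within the 6 fast-growing PNs the 3 binding protein genes were closest, with r = 0.998 for *Igfbp4* and *Igfbp7*, 0.98 for *Igfbp3* and *Igfbp7* and 0.97 for *Igfbp3* and *Igfbp4*. These are descriptions over few libraries that share their depth, cell makeup and growth group.

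Markers of fibroblasts, macrophages and perineurial cells moved with the same members. The summed level of 6 fibroblast markers was 1915 to 3710 CPM in controls, 1249 to 5565 in slow-growing PNs and 5473 to 10343 in fast-growing PNs. In fast-growing PNs against controls 6 of 6 of these markers were called higher, while 0 of 6 were called in slow-growing PNs against controls and 0 of 6 between fast- and slow-growing PNs, and none was at 0. Over the 11 PNs, r with this sum was 0.98 for *Igfbp7* (rho 0.96), 0.89 for *Igfbp4*, 0.88 for *Igfbp3* (rho 0.95), 0.845 for *Igf1*, −0.74 for *Igf1r* (rho −0.75), 0.70 for *Igfbp6*, 0.34 for *Igfbp5* and −0.41 for *Igfbp2*. Without the 2 PNs farthest from the member's median, r was 0.94 for *Igfbp7* and *Igfbp3*, 0.69 for *Igfbp4*, 0.57 for *Igf1* and −0.55 for *Igf1r*. For the other members it was 0.28 for *Igfbp6*, −0.0094 for *Igfbp5* and −0.13 for *Igfbp2*. Within the 6 fast-growing PNs *Igfbp5* also ran with the fibroblast sum (r = 0.92). In controls, *Igfbp7* at 224 to 274 CPM and *Igf1* at 106 to 143 CPM stood above the PNs with a like fibroblast sum. For *Igf1* the closest pair was nearly level, 105.6 CPM in control DRG3 (fibroblast sum 3710) and 105.0 CPM in slow-growing PN 1206 (4083). Macrophage markers, 5 of the 6 listed genes being in the table, summed to 139 to 468 CPM in controls, 39.8 to 370 in slow-growing PNs and 206 to 634 in fast-growing PNs, with none called in any comparison. Over the 11 PNs r with this macrophage sum was 0.94 for *Igfbp3*, 0.91 for *Igfbp7*, 0.89 for *Igfbp4* and 0.79 for *Igf1*, and −0.63 for *Igf1r*. After the same 2 PNs per member were left out, it was 0.96, 0.83, 0.77, 0.48 and −0.30 in that order. The sum of 4 perineurial markers was 186 to 432 CPM in controls, 111 to 502 in slow-growing PNs and 223 to 912 in fast-growing PNs, with 1 of 4 called higher in fast-growing PNs against controls and 1 of 4 called lower in all PNs against controls. Over the 11 PNs r with the perineurial sum was 0.89 for *Igfbp7* and *Igfbp4*, 0.73 for *Igfbp3*, 0.76 for *Igf1* and −0.75 for *Igf1r*, and within the fast-growing PNs it was 0.95 for *Igfbp7* and 0.94 for *Igfbp3*. Leaving out the 2 farthest PNs gave 0.69 for *Igfbp7* and *Igfbp4*, 0.895 for *Igfbp3*, 0.46 for *Igf1* and −0.62 for *Igf1r*. Neuron markers ran the other way over the 11 PNs, with r = −0.71 for *Igf1*, −0.58 for *Igfbp3* and *Igfbp4* (rho −0.82 and −0.83), −0.57 for *Igfbp7* (rho −0.76) and 0.62 for *Igf1r*, and 0 of 6 were called in any comparison. With the 2 farthest PNs left out, r with the neuron sum was 0.064 for *Igf1r* and −0.43 for *Igf1*. It was −0.665 for *Igfbp3*, −0.59 for *Igfbp4* and −0.60 for *Igfbp7*. Within the 6 fast-growing PNs the SC marker sum had r from −0.85 to −0.78 with *Igfbp3* to *Igfbp7*, but r from −0.29 to 0.27 over the 11 PNs, and the endothelial sum had r from 0.88 to 0.95 with them. Endothelial markers were lower in fast-growing PNs than in controls for 3 of 6 genes, and pericyte and smooth muscle markers for 3 of 5. The part of these cell types in the members' levels was not tested.

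**Figure D3:**
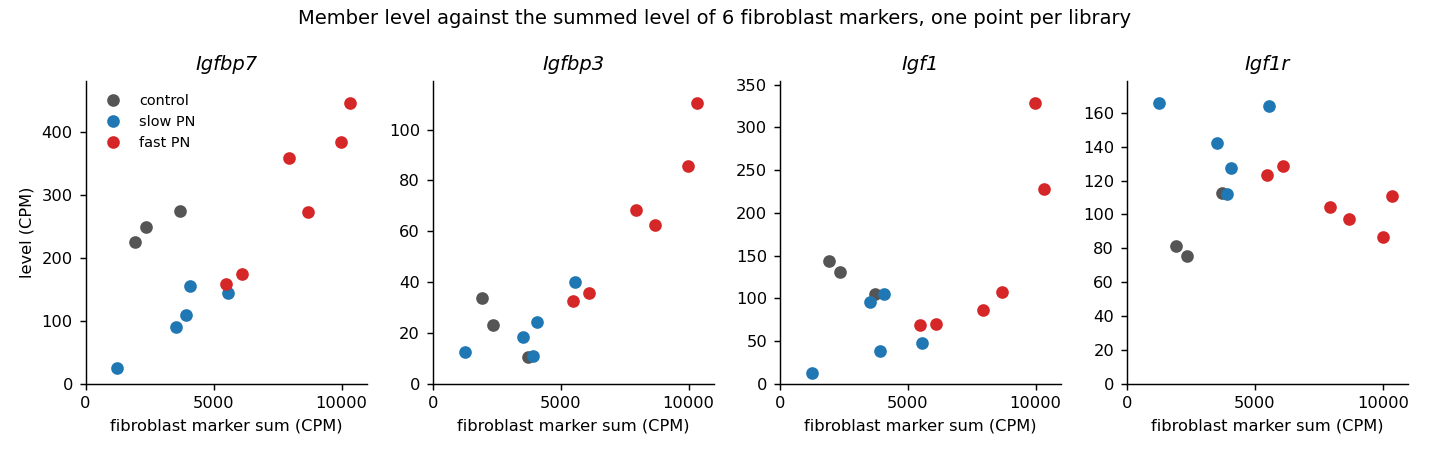
Level of *Igfbp7*, *Igfbp3*, *Igf1* and *Igf1r* in CPM (vertical axes, from 0) against the summed CPM of 6 fibroblast markers (horizontal axis), with 1 point per library colored by group. Among PNs, *Igfbp7* and *Igfbp3* were higher where the fibroblast sum was higher, *Igf1r* was lower, and the 3 controls lay off the PN pattern for *Igfbp7*.

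The genes with the most similar pattern to each member were sought over the 14 libraries, among 11044 genes whose log2(CPM + 1) averaged 3 or more. *Igfbp3* followed a pattern close to those of *Rap2b* (r = 0.96) and *Plekho1* (0.95). *Igfbp4* was most like *Hic1* (0.97), *Prelp* (0.95) and *Ecm1* (0.93), and *Igfbp7* like *Irak4* (0.95), *Tram2* (0.94) and *Prelp* (0.94), a matrix proteoglycan gene shared by both lists. *Igfbp6* was most like *Smoc2*, *Mpzl2* and *C2* (0.93, 0.91 and 0.90), *Igfbp5* like *Sept11*, *Tjp1* and *Prickle1* (0.90, 0.86 and 0.86), and *Igfbp2* like *Cacnb1*, *Efna1* and *Atp6v1g1* (0.87, 0.84 and 0.84). *Igf1* was most like *Gstm2*, *Dab2* and *Crem* (0.90, 0.89 and 0.89), and *Igf1r* like *Armc1*, *9330159F19Rik* and *Zdhhc2* (0.92, 0.92 and 0.89). Over the 11 PNs alone these 23 correlations ranged from 0.80 to 0.98.

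Around the members, a list of 36 other IGF pathway genes was read in the same fits. Between PNs and controls 8 of 31 tested genes were called, 5 higher and 3 lower, beside 26.3% of all genes. In slow-growing PNs 1 of 31 was called, *Stc2*, which was lower, beside 11.3% of all genes, and in fast-growing PNs 11 of 31, 6 higher and 5 lower, beside 31.4%. Between fast- and slow-growing PNs edgeR called 0 of 29 beside 1.27% of all genes, with 4 at an unadjusted p under 0.05 beside 20.4%. DESeq2 called 2 beside 10.2% of all genes, and limma-voom 0 beside 0.22%. A single library moved these counts: the count for all PNs was 3 without DRG4 or DRG5, 4 without 1216, and 5 without DRG3 or 1198A. The slow-growing count was 4 without DRG3 and 2 without 1203 or 1206, and the fast-growing count was 7 without DRG5. The count was 3 without 1198A and 1 without 1203 for fast- against slow-growing PNs. Shares of all genes called in these refits are not given here, so the counts alone do not show a change particular to the list. The list's median fitted log2 difference was −0.19, −0.13, −0.26 and −0.03 in these comparisons. With muscle and fat covariates it was −0.07, 0.11, −0.17 and 0.16, and with the length and GC correction −0.31, −0.23, −0.29 and 0.04. In all PNs against controls the called genes included *Pik3r1* (0.91), *Pappa* (2.67) and the adaptor genes *Shc1* (0.84) and *Gab1* (0.83) on the higher side. *Stc2* (−4.15), *Pik3cb* (−0.48) and the signaling gene *Stat5b* (−0.50) were the 3 on the lower side. Leaving out 1 library at a time, the *Gab1* call was lost in 10 of 14 fits (and also with the length and GC correction), that of *Stat5b* in 5 (without DRG4, DRG5, 1198A, 1179 or 1216, and also with limma-voom or no filter), that of *Shc1* in 3 (without DRG3, DRG4 or DRG5) and that of *Pik3cb* in 3 (without DRG3, DRG4 or 1216, and also with no filter), while *Pik3r1* and *Stc2* kept theirs in all 14. With the muscle and fat covariates, a fit that called 484 of 16283 genes, none of these calls remained. The fitted values there were 0.82 for *Pik3r1* (edgeR adjusted p = 0.166) and −3.67 for *Stc2* (edgeR adjusted p = 0.306). They were 0.87 for *Shc1*, 0.38 for *Gab1*, −0.46 for *Pik3cb* and −0.40 for *Stat5b*. *Ins1* had no count in any library, and *Ins2*, *Igfbp1*, *Igfbpl1* and *Irs4* were too low to be tested in the comparisons with controls.

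Among the proteases and their inhibitors, *Pappa*, which encodes the PAPP-A protease that cleaves IGFBP4 and IGFBP5, measured 12.6, 9.43 and 13.4 CPM in controls. It measured 22.7, 114, 18.6, 16.0 and 21.4 CPM in slow-growing PNs, where 1198A stood far above the others, and 68.8 to 181 CPM in fast-growing PNs. Each PN was thus above each control. *Pappa* rose by 3.11 on the log2 scale in fast-growing PNs against controls (SE 0.38, edgeR adjusted p = 0.000314) and by 2.67 in all PNs (SE 0.78, edgeR adjusted p = 0.0214). The latter call was lost without DRG3 (adjusted p = 0.0563), DRG4 (adjusted p = 0.0960) or DRG5 (adjusted p = 0.0834), with limma-voom (2.26, adjusted p = 0.0735) and with the muscle and fat covariates (0.27, edgeR adjusted p = 0.899), a fit that called 484 of 16283 genes. For fast-growing PNs the covariate fit, which called 0 genes, gave 3.51 (edgeR adjusted p = 0.509). In slow-growing PNs the fitted difference was 1.67 (edgeR adjusted p = 0.159), and between fast- and slow-growing PNs 1.45 (edgeR adjusted p = 0.157), or 2.42 without 1198A (edgeR adjusted p = 0.00295). Without 1198A, calls over all genes between fast- and slow-growing PNs went from 196 of 15465 to 1194 of 15611. *Stc2*, which encodes an inhibitor of PAPP-A, fell by 4.02 in fast-growing PNs (SE 0.92, edgeR adjusted p = 0.00905) and fell by 4.48 in slow-growing PNs (SE 0.70, edgeR adjusted p = 0.00606). It had 18 to 75 counts in controls and 0 to 13 in PNs. With the covariates the *Stc2* difference turned to 0.97 in fast-growing PNs (edgeR adjusted p = 0.988) and was −3.51 in slow-growing PNs (edgeR adjusted p = 0.847), fits that called 0 of all genes. The related inhibitor gene *Stc1* was fitted 2.18 lower in slow-growing PNs (edgeR adjusted p = 0.0523), and passed with DESeq2 (adjusted p = 0.00854), in the single edgeR fit of 3 groups (adjusted p = 0.0498), without DRG3 (adjusted p = 0.0295) and without 1206 (adjusted p = 0.0318). *Htra1*, another protease gene, rose by 1.22 in fast-growing PNs (SE 0.27, edgeR adjusted p = 0.00772), from 21.04 to 39.4 CPM in controls to 50.7 to 92.5 CPM, and was fitted 0.23 with the covariates (edgeR adjusted p = 0.988).

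With all libraries of each comparison in the edgeR fit, the remaining ligand and receptor genes did not pass the test. *Igf2* measured 23.9 to 54.5 CPM in controls, 15.3 to 117 in slow-growing PNs and 4.63 to 27.3 in fast-growing PNs, and was fitted 1.36 lower in fast-growing PNs than in controls (edgeR adjusted p = 0.0629). This difference passed with DESeq2 (adjusted p = 0.0310), limma-voom (adjusted p = 0.0479) and edgeR without 1216 (adjusted p = 0.0406). The receptor gene *Insrr* passed in the same comparison without 1053 (−2.69, edgeR adjusted p = 0.0389). The exons of *Igf2* overlap *Gm49394* on the same strand and the antisense gene *Igf2os*. *Igf2r*, which clears IGF2, was fitted 0.29 lower (edgeR adjusted p = 0.215), and *Insr*, the insulin receptor gene, 0.10 higher (edgeR adjusted p = 0.754) in the same comparison. *Igfals*, whose protein joins IGFBP3 and IGF1 in a complex in blood, fell by 3.46 in fast-growing PNs (SE 0.63, edgeR adjusted p = 0.00299) from 14 to 26 counts in controls to 0 to 5 counts, and was fitted −2.87 with the covariates (edgeR adjusted p = 0.944).

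In the growth hormone axis, *Ghr*, the growth hormone receptor gene, measured 191 to 288 CPM in controls, 67.3 to 277 in slow-growing PNs and 36.7 to 77.5 in fast-growing PNs. *Ghr* fell by 1.999 on the log2 scale in fast-growing PNs against controls (SE 0.23, edgeR adjusted p = 0.000249), and was fitted 1.33 lower in fast- than in slow-growing PNs (edgeR adjusted p = 0.0697, 0.0416 without 1198A, and 0.00582 with DESeq2). Between fast- and slow-growing PNs edgeR called 1194 of 15611 genes without 1198A, beside 196 of 15465 with all libraries. Of the fat markers, 10 of 10 were lower in fast-growing PNs against controls in the edgeR test with all libraries. With muscle and fat marker scores as covariates the *Ghr* difference went from −1.999 to −0.17 and lost its call (edgeR adjusted p = 0.988), in the fit that called 0 of 16037 genes. The fat marker level and the group cannot be told apart in this comparison.

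Downstream of the receptor, *Pik3r1*, encoding a regulatory subunit of PI3K, rose by 0.95 (SE 0.16, edgeR adjusted p = 0.00169) in fast-growing PNs. The adaptor genes *Shc1* (0.76) and *Gab1* (0.88) were also called higher in fast-growing PNs, as was *Foxo1* (0.55), a transcription factor gene of the pathway. *Akt2* fell by 0.54 and *Pik3cb*, a catalytic subunit of PI3K, by 0.61. When each of the 9 libraries was left out in turn, the call of *Gab1* was lost in 7 fits, those of *Foxo1* and *Pik3cb* in 5 each, that of *Shc1* without DRG4 or DRG5 (edgeR adjusted p = 0.0713 and 0.0693) and that of *Akt2* without DRG5 (edgeR adjusted p = 0.0818), while *Pik3r1* kept its call in all 9. With the covariates, in the fit that called 0 genes, the fitted values were 0.71 for *Pik3r1*, 0.63 for *Shc1*, −0.96 for *Pik3cb*, −0.85 for *Akt2*, −0.56 for *Gab1* and 0.062 for *Foxo1*. The *Foxo1* call was also lost with RLE factors (adjusted p = 0.0508), no filter (adjusted p = 0.0611), the single fit (adjusted p = 0.126) and the length and GC correction (0.40, adjusted p = 0.203), and the *Akt2* call with the last 2 of these (adjusted p = 0.117 and 0.0734). *Irs1*, the insulin receptor substrate gene, was fitted 0.44 lower (edgeR adjusted p = 0.150). Exons of *Foxo1*, *Gab1*, *Irs1* and *Stc1* each overlap those of a gene on the opposite strand.

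**Figure D4:**
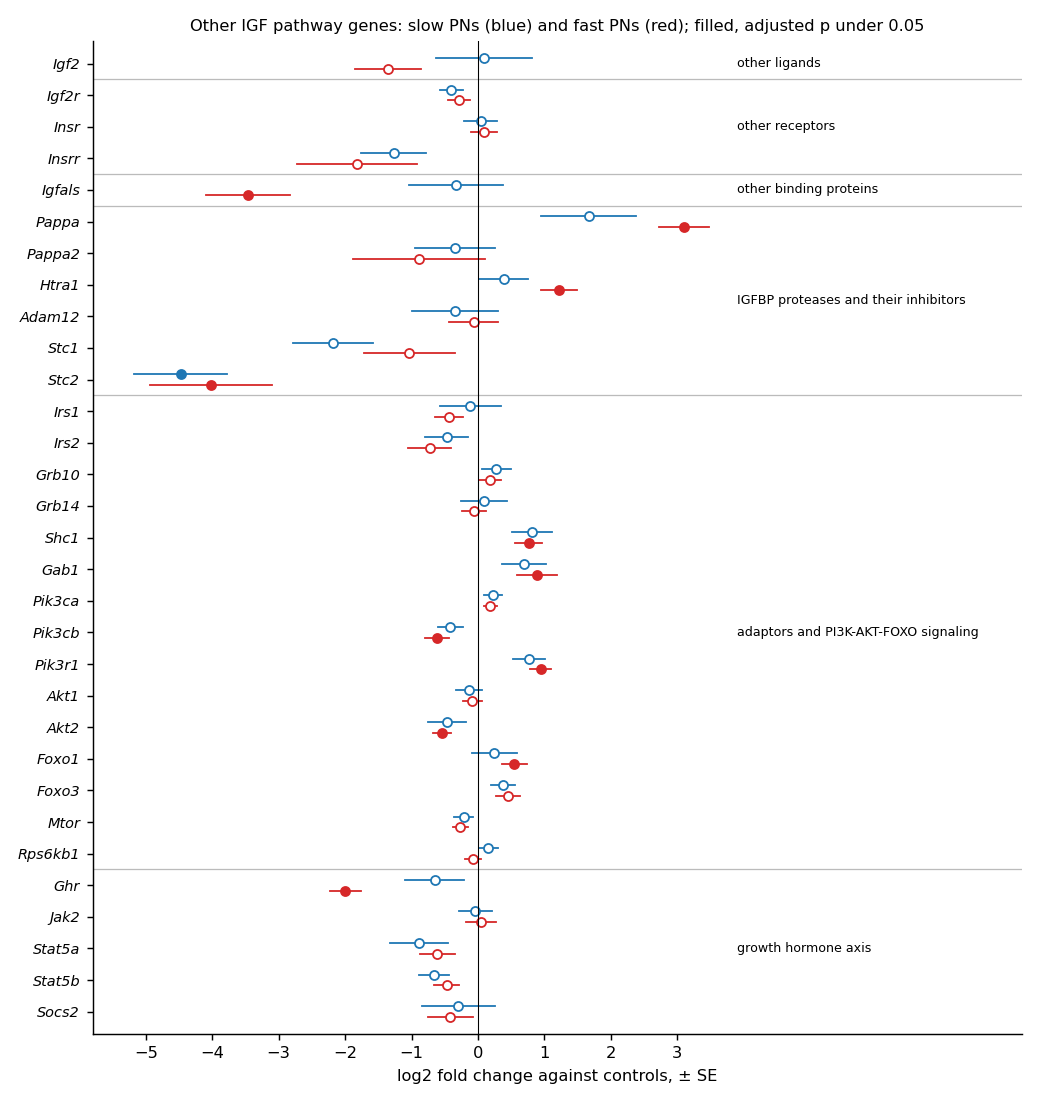
Fitted log2 fold change against controls (horizontal axis, lines ± SE) of the IGF pathway genes other than the members, in slow-growing (blue) and fast-growing (red) PNs, grouped by role. Filled points passed the test, among them *Pappa* at 3.11 and *Ghr* at −1.999 in fast-growing PNs and *Stc2* at −4.48 in slow-growing PNs.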

How the data were processed

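Bulk RNA-seq of 14 mouse libraries was analyzed. Per the labels and the study's methods, the authors isolated whole-tissue RNA, amplified it by the Ovation RNA-Seq v2 kit, used CASAVA 1.4 and FastQC 0.11.0, aligned reads to mm10 with TopHat2 2.0.9, and counted them per gene with featureCounts 1.5.2. The deposited table gives raw, whole-number counts of 24062 genes, and 0 of its rows lack a gene name. The authors' log2 table, made with edgeR 3.16.5, was not used here. Groups came from the labels. Neither batch nor sex is given per library, and a difference in how controls and PNs were prepared cannot be told apart from one between the tissues. Each library has its own mouse label. Nothing further says how independent the animals are, so p-values measure the spread between these libraries.

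Counts were fitted in R 4.3.3 with edgeR 4.0.16 (filterByExpr, TMM, quasi-likelihood test), with only the libraries of each comparison in the fit and no covariate. Benjamini-Hochberg adjustment ran over all genes tested, and fits were tested on simulated counts. Recovery there was lowest for slow-growing PNs against controls and missed the bound first set, which was replaced, after this was seen, by bounds on bias and false calls, so that a gene not called in that comparison may still differ. Intervals of 95% use the test's degrees of freedom. Alternatives were RLE factors, no filter, DESeq2 1.42.0, limma-voom (limma 3.58.1), a single fit of 3 groups, 2 marker covariates, a length and GC correction (mgcv 1.9.3), each library left out, and 1203 and 1191 left out together, which was added after the data were seen. Promoters came from RefSeq (GRCm38.p6), with all 8 members matched. Replicate libraries differed by more than sampling noise in all 28 within-group pairs. Floors of 3 counts cover counting error only, since amplified reads are not independent molecules.

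The text gives all members, up to 4 called pathway genes per direction and comparison, by lowest p, beside *Igf2*, *Igf2r*, *Insr*, *Irs1* and *Pappa*, and for each member the 3 genes of highest correlation. In the pathway list and the correlated genes, 1 gene each is not reported here. *Stc1*, *Insrr* and *Foxo1*, and *Gab1* and *Pik3cb* in fast-growing PNs, go beyond this rule and were named after their values were seen. Members and lists were chosen with earlier results of these data known.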

Additional observations from a re-analysis of the deposited data

How the results depend on the processing

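Over the alternatives, 521 of 576 refitted member differences kept their direction and their side of the threshold, 10 passed the threshold newly, 6 lost it with a library left out (all for *Igfbp3* in fast-growing PNs against controls), and 39 changed sign, among them *Igfbp3* in that comparison under the covariates, which also lost its call. The cause was not tested. Members called went from 0 to 1 in slow-growing PNs against controls with DESeq2 or a single fit of 3 groups, from 1 to 0 in fast-growing PNs against controls with muscle and fat covariates, and from 0 to 3 between fast- and slow-growing PNs with DESeq2. Leaving out each library gave 0 to 1 members called in each of the 4 comparisons. With control DRG3 left out, *Igf1r* was called between all PNs and controls (0.66, edgeR adjusted p = 0.0499). IGF pathway genes called ranged from 3 to 9 (PNs), 1 to 4 (slow-growing), 7 to 12 (fast-growing) and 0 to 3 (fast- against slow-growing) when each library was left out. They numbered 0 in the 3 comparisons with controls under the covariates, a fit that called 484, 0 and 0 of all genes. In slow-growing PNs against controls they numbered 3 with DESeq2, beside 22.5% of all genes, and 4 in the single fit. Between fast- and slow-growing PNs they numbered 2 with DESeq2, beside 10.2% of all genes, 1 in the single fit and 1 without 1203 and 1191. Shares of all genes called are not given here for the single fit or the fits with libraries left out.

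Sign changes concerned differences that passed no test in the fit that gave them. For all PNs against controls, covariates gave *Igfbp2* 0.48 and *Igfbp3* −1.34, and the length and GC correction gave *Igfbp4* 0.088, *Igfbp6* 0.37 and *Igfbp7* 0.39. For slow-growing PNs against controls, covariates gave *Igf1* 0.60, *Igfbp2* 0.16, *Igfbp4* 0.17 and *Igfbp6* 0.78, and the correction gave *Igfbp2* 0.058, *Igfbp3* 0.19 and *Igfbp6* 0.28. For fast-growing PNs against controls, limma-voom gave *Igf1* −0.086, the correction gave *Igf1* −0.045 and *Igfbp6* 0.45, and covariates gave *Igfbp3* −0.17, *Igfbp4* −1.21, *Igfbp5* −1.14 and *Igfbp7* −1.22. Between fast- and slow-growing PNs, *Igfbp5* was 0.034 with covariates and 0.0098 with the correction, and without 1203 and 1191 *Igfbp2* was 0.0465 and *Igfbp6* −0.18. Leaving out each library, *Igfbp4* ranged from −0.13 to 0.11 and *Igfbp6* from −0.56 to 0.24 for all PNs against controls. The slow-growing range was −0.48 to 0.31 for *Igfbp3* and −0.67 to 0.11 for *Igfbp6*, and the fast-growing range −0.22 to 0.34 for *Igf1* and −0.51 to 0.25 for *Igfbp6*. For fast- against slow-growing PNs *Igfbp2* ranged from −0.54 to 0.0073, *Igfbp5* from −0.18 to 0.15 and *Igfbp6* from −0.11 to 0.36. No paired analysis was possible because the groups share no replicate numbers. Of the members, counting error is widest for *Igfbp2*, which had under 3 counts in 3 libraries.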
